A study of Rattus norvegicus with 129 samples.

Results

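Female Sprague-Dawley rats received phenobarbital by gavage on 5 consecutive days, and liver RNA was measured 24 h after the last dose on one-colour oligonucleotide arrays. Phenobarbital rats 4511, 4512, 4513, 4514 and 4515 were compared with vehicle rats 1511, 1512, 1513, 1514 and 1515. They were picked by compound, time and sex in the sample labels, by no measured value, and made up 10 of the 129 liver samples of the series. The dose was 100 mg/kg in 0.5% methylcellulose with 1% Tween 80, and vehicle rats were gavaged with the suspension alone on the same days. Further groups of 5 rats served 3 differences. These were male rats given phenobarbital or vehicle for 5 days, female rats killed 24 h after a single dose of phenobarbital or vehicle, and female rats given 5 daily doses of PCN at 100 mg/kg. Levels are also given for female rats killed 6 h after a single dose of phenobarbital or vehicle. All were of the same strain, and the labels used here give no age.

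Phenobarbital is a barbiturate that activates the nuclear receptor CAR in hepatocytes without being a strong ligand of it, and at high doses it also acts through the receptor PXR. Both receptors pair with RXR and switch on genes of drug oxidation, conjugation and export, among which the CYP2B enzymes are the classical phenobarbital-inducible ones. In rodent liver the drug is also known for growth of the organ, proliferation of smooth endoplasmic reticulum and altered lipid metabolism. PCN, a synthetic steroid, is a textbook activator of rodent PXR.

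The direct repeat of a half-site at which PXR pairs with RXR is best known from the promoters of the rat Cyp3a genes, which are shown because Cyp3a23-3a1 and Cyp3a2 are among the induced members below. The sequences are RefSeq promoters of the GRCr8 build, from 250 bases before to 50 bases after each gene's start, 5′ to 3′ on the gene's strand. Cyp3a23-3a1 is at chr12:14398754-14399053 and Cyp3a2 at chr12:14343808-14344107, both on the minus strand. Capitals mark matches to AGGTCA and AGTTCA on either strand, so that TGAACT is AGTTCA read on the other strand.
Cyp3a23-3a1: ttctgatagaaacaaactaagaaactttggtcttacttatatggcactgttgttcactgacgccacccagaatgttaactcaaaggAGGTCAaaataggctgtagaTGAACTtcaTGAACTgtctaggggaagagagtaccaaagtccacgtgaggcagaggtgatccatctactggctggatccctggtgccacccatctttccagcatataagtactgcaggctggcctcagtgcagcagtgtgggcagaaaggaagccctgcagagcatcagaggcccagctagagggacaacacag
Cyp3a2: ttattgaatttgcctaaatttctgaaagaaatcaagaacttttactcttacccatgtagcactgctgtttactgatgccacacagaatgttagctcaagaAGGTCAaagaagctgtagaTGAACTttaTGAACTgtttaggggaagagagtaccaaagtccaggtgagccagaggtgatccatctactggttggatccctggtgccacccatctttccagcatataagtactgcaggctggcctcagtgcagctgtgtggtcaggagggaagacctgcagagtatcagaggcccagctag
Both promoters held the same arrangement, an AGGTCA followed by 2 copies of TGAACT with 3 bases between the copies, the first of which begins 144 bases before the start of Cyp3a23-3a1 and 131 bases before that of Cyp3a2. Searched on both strands as AGTTCA, any 3 bases and AGTTCA, a pattern chosen after these promoters had been read, the repeat was found in 2 of 33469 promoters (0.00598%), which were these. The half-sites AGGTCA and AGTTCA, whose matches include those inside the repeat, occurred in 16.2% and 14.5% of all promoters. A match describes letters and shows no binding.

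Of 8740 probe sets, 216 (2.47%) passed at an adjusted p under 0.05, 127 higher (1.45%) and 89 lower (1.02%) with phenobarbital, by limma with Benjamini-Hochberg adjustment. An unadjusted p under 0.05 was reached by 871. Intensities of single rats are given after quantile normalisation, with values below 0 written as 0. Changes are differences of log2(intensity + 16), on which a value at or below 0 lies at a floor of 4.00, so that they understate the change of dim genes. Among the probe sets that passed, 72 were at least 2-fold higher and 16 at least 2-fold lower, and 182 had 1 gene symbol, 18 several and 16 none. A gene was read from its brightest probe set with 1 symbol, which gave 4736 genes, of which 121 (2.55%) passed, 69 higher (1.46%) and 52 lower (1.1%). Of these, 54 had further probe sets, 90 in all, of which 39 passed too and 80 had the same sign. The values of the 5 phenobarbital rats and the 5 vehicle rats did not overlap in 3.23% of all genes. The median change of all genes was 0. Of the 216, 58.8% were higher; scaling each array by its median in place of quantile normalisation gave 154, of which 72.1% were higher, and a fit of only the 2 groups gave 85. Over the 10 arrays the mean deposited intensity was 239 to 372 and 21.8% to 24.6% of values were at or below 0. In whole liver, fewer cells of a type and less RNA per cell cannot be told apart.

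**Figure D1:**
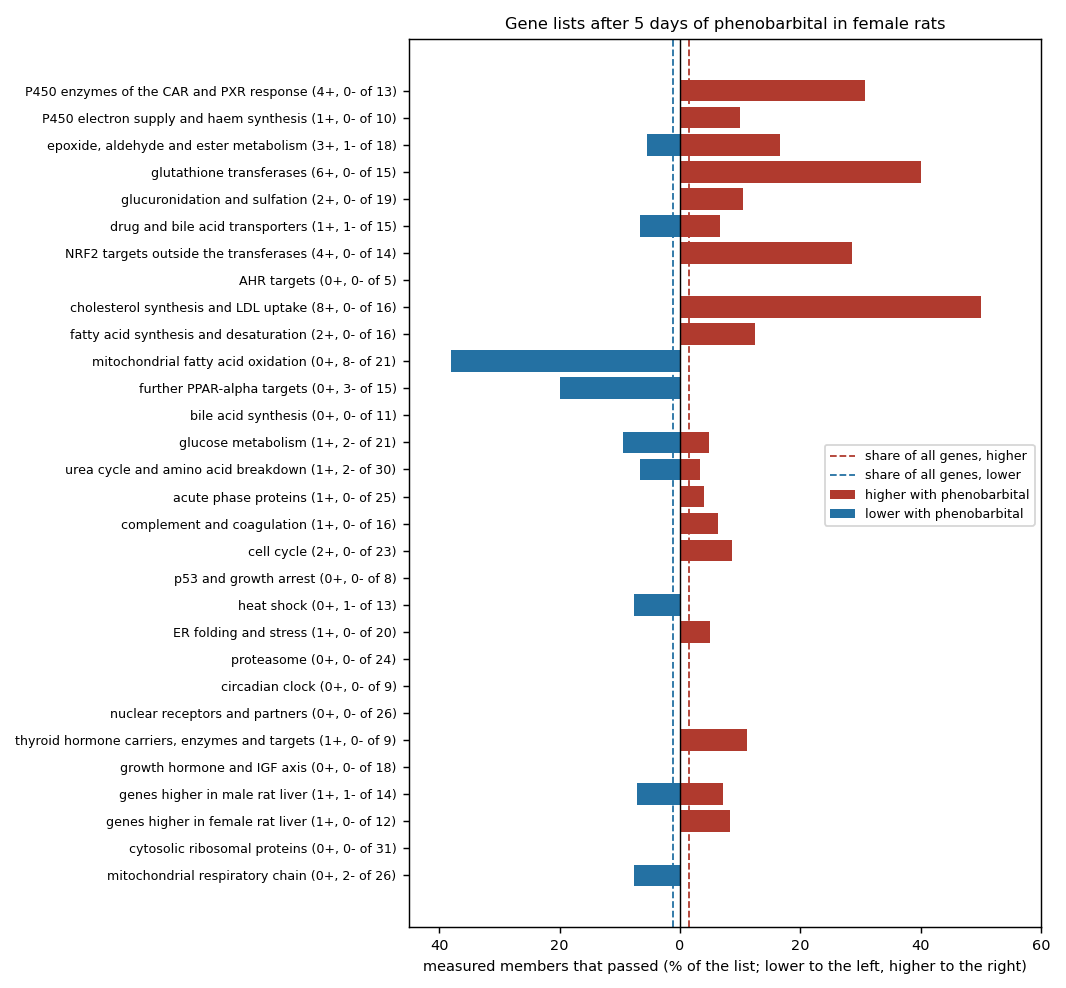
Share of the measured members of 30 gene lists that passed at an adjusted p under 0.05 after 5 days of phenobarbital in female rats, in percent, with lower members to the left of 0 and higher members to the right; dashed lines give the shares of all genes, 1.46% higher and 1.1% lower. The longest bars are cholesterol synthesis with 8 of 16 members higher, glutathione transferases with 6 of 15 higher, and mitochondrial fatty acid oxidation with 8 of 21 lower.

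The cytochrome P450 enzymes of the CAR and PXR response oxidise drugs and steroids, and 4 of 13 measured members rose and none fell, against 1.46% and 1.1% of all genes. Cyp2b2, the classical phenobarbital-inducible rat P450, had intensities of 6361, 6295, 6361, 6528 and 5817 in phenobarbital rats 4511 to 4515, against 597, 294, 579, 402 and 443 in vehicle rats 1511 to 1515. The phenobarbital rats lay in a narrow band far above every vehicle rat. The log2 change was 3.76 ± 0.29 (SE), adjusted p = 4.2e-17. Cyp2b15, a member of the same subfamily, read 2108, 2342, 2506, 2580.0 and 2029 in phenobarbital rats, against 221, 181, 303, 186 and 209.7 in vehicle rats, again without overlap. Its change was 3.32 ± 0.19 (SE), adjusted p = 1.5e-23. CYP2B transcripts are near-identical, so signal of one member on the probes of another was not separated, and Cyp2b1 was not analysed here.

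Of the CYP3A enzymes, which hydroxylate steroids and many drugs, Cyp3a23-3a1 read 5592, 4961, 6295, 6361 and 5297 in phenobarbital rats 4511 to 4515, against 2535, 2322, 3212, 1575 and 2698 in vehicle rats 1511 to 1515. Every phenobarbital rat lay above every vehicle rat, and the gene's log2 change was 1.23 ± 0.17 (SE), adjusted p = 1.6e-07, with its 3 other probe sets changed the same way. Cyp3a2, known as a CYP3A enzyme of male rat liver, read 22.8, 169.6, 58.8, 368 and 124 in phenobarbital rats 4511 to 4515, against 0, 0, 22.1, 0 and 0 in vehicle rats 1511 to 1515. All but 1 of the vehicle females were at the floor, and phenobarbital rat 4511 lay just above vehicle rat 1513. The log2 change of Cyp3a2 was 2.70 ± 0.34 (SE), adjusted p = 7.1e-09. The size depends on the floor and was 1.43 with a pseudocount of 64 and 5.77 with a pseudocount of 1. Its adjusted p was 0.096 when only the 2 groups were fitted. The CYP3A members Cyp3a18 and Cyp3a9 had log2 changes of 0.011 ± 0.29 (SE) and 0.0071 ± 0.48 (SE), neither passing. Cyp2c6v1 was 0.27 higher (adjusted p = 0.12) and passed when the 2 groups were fitted alone (adjusted p = 0.044). Cyp2c7 was at -0.015. The sex-specific steroid hydroxylases Cyp2c11 and Cyp2c12, which lie outside the list, were at 0.64, adjusted p = 0.19, and -0.23, adjusted p = 1.

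**Figure D2:**
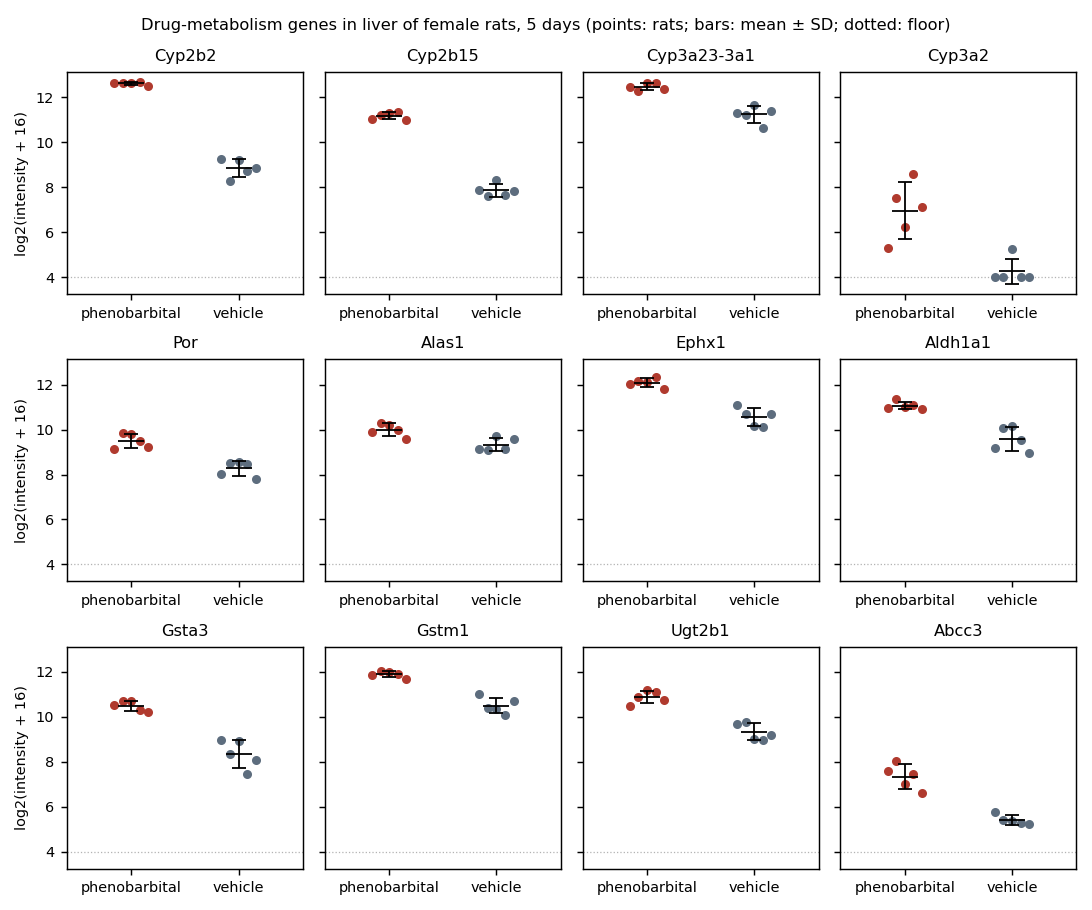
Levels of 12 drug-metabolism genes as log2(intensity + 16) in single female rats, phenobarbital for 5 days left of vehicle; points are rats, bars the mean ± SD (n = 5), and the dotted line is the floor of 4.00. The groups do not overlap in any panel but that of Alas1, in which phenobarbital rat 4515 lies below the highest vehicle rats; the Cyp3a2 groups are separated by a narrow gap.

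Against 1.46% higher and 1.1% lower of all genes, 1 of 10 genes of electron supply to P450s and of haem synthesis rose and none fell. It was Por, the reductase that passes electrons to microsomal P450s, which read 555, 899.8, 874, 702 and 587 in phenobarbital rats 4511 to 4515, against 240.1, 349.9, 359, 342 and 207 in vehicle rats 1511 to 1515. The groups did not overlap and its log2 change was 1.23 ± 0.26 (SE), adjusted p = 0.00095. Alas1, the first and rate-limiting enzyme of haem synthesis, read 942, 1232, 1163, 998 and 745 in phenobarbital rats, against 548, 532, 814, 544 and 756 in vehicle rats. Its groups overlapped and its change of 0.66 ± 0.25 (SE) did not pass (adjusted p = 0.22).

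Among 18 genes of epoxide, aldehyde and ester metabolism, 3 rose and 1 fell, against 1.46% and 1.1% of all genes. Ephx1, the microsomal epoxide hydrolase, read 4205, 4621, 4384, 5102 and 3566 in phenobarbital rats 4511 to 4515, against 2182, 1645, 1128, 1104 and 1641 in vehicle rats 1511 to 1515, with no overlap and a log2 change of 1.53 ± 0.15 (SE), adjusted p = 8.2e-13. Aldh1a1, which oxidises retinaldehyde and other aldehydes, read 1989, 2587, 2044, 2195 and 1903 in phenobarbital rats, against 571, 1043, 1119.7, 735 and 475 in vehicle rats. All 5 phenobarbital rats again lay above all 5 vehicle rats, by 1.49 ± 0.25 (SE), adjusted p = 1.4e-05. Akr7a3, the aflatoxin aldehyde reductase, rose by 1.36 ± 0.29 (SE), adjusted p = 0.0015. With rat 1003, a male vehicle rat whose array has displaced rows, kept in the fit, Ephx1 and Akr7a3 did not pass (adjusted p = 0.13 and 0.094). Ephx2, the soluble epoxide hydrolase that opens fatty acid epoxides, read 101, 19.3, 72.3, 57.2 and 20.3 in phenobarbital rats, against 22.4, 219, 285, 293 and 203 in vehicle rats. Vehicle rat 1511 lay among the phenobarbital rats, and the other 4 vehicle rats above them. The change of Ephx2 was -1.51 ± 0.44 (SE), adjusted p = 0.044. It passed in none of the fits without vehicle rat 1512, 1513, 1514 or 1515 or phenobarbital rat 4512, 4514 or 4515, with adjusted p of 0.068 to 0.19.

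Glutathione transferases couple glutathione to reactive compounds, and 6 of 15 measured members rose and none fell, against 1.46% higher and 1.1% lower of all genes. The list's median log2 change was 0.49, beside a median of 0 over all genes. Gsta3, an alpha class transferase, read 1457, 1677, 1661, 1232 and 1189 in phenobarbital rats 4511 to 4515, against 484, 310.2, 469, 159 and 252 in vehicle rats 1511 to 1515. Phenobarbital rats did not overlap with vehicle rats, and the log2 change of Gsta3 was 2.15 ± 0.35 (SE), adjusted p = 7.7e-06, with its 2 other probe sets changed alike. Gstm1, of the mu class, read 3734, 4239, 4048, 3792 and 3266 in phenobarbital rats, against 2055, 1324, 1270.0, 1085 and 1637 in vehicle rats. Its groups did not overlap and its change was 1.39 ± 0.14 (SE), adjusted p = 2.5e-12. The theta class Gstt1 rose by 1.03 ± 0.21 (SE), adjusted p = 0.00089, and Gsta4, which conjugates lipid peroxidation products, by 1.002 ± 0.14 (SE), adjusted p = 1.7e-07. Gstm2 and the microsomal Mgst2, named after their values were seen to complete the 6, rose by 0.75 (adjusted p = 0.002) and 0.57 (adjusted p = 0.0013). With rat 1003 kept in the fit, 4 of the 15 passed, without Gstm1 and Gstm2. With only the 2 groups fitted, Gsta4 and Mgst2 did not pass (adjusted p = 0.069 and 0.22), and 5 members passed.

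Among 19 genes of glucuronidation and sulfation, 2 rose and none fell, against 1.46% and 1.1% of all genes. Ugt2b1, a glucuronosyltransferase, read 1409, 1898, 2342, 2164 and 1732 in phenobarbital rats 4511 to 4515, against 813, 857, 497, 487 and 575 in vehicle rats 1511 to 1515. The groups did not overlap, with a log2 change of 1.56 ± 0.20 (SE), adjusted p = 3.7e-08. Ugt2b35, of the same family, rose by 0.36 ± 0.069 (SE), adjusted p = 0.00024, with another probe set at 0.10, adjusted p = 1. Among 15 transporters of drugs and bile acids, 1 rose and 1 fell, against 1.46% and 1.1% of all genes. Abcc3, which carries glucuronide conjugates across the sinusoidal membrane into blood, read 179, 245, 112, 161 and 80.7 in phenobarbital rats 4511 to 4515, against 38.8, 26.0, 25.7, 23.2 and 21.2 in vehicle rats 1511 to 1515, again with no overlap and with a log2 change of 1.93 ± 0.26 (SE), adjusted p = 1.3e-07. Abcb4, which moves phosphatidylcholine into bile, fell by 0.86 on the log2 scale (adjusted p = 0.016). The fall of Abcb4 did not pass without vehicle rat 1513 or 1514 or phenobarbital rat 4514, or with only the 2 groups fitted, where adjusted p was 0.058 to 0.23. Slco1a4, an organic anion importer, had a log2 change of 0.32 ± 0.21 (SE) and did not pass.

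Of 14 measured NRF2 targets outside the transferases, 4 rose and none fell, against 1.46% higher and 1.1% lower of all genes. Of these 4, 2, Ephx1 and Akr7a3, stand in the list of epoxide, aldehyde and ester metabolism as well. The other 2 make NADPH or feed the pentose phosphate pathway. Me1, malic enzyme, read 262, 324, 288, 243 and 179.5 in phenobarbital rats 4511 to 4515, against 81.8, 120.2, 102, 115 and 64.9 in vehicle rats 1511 to 1515. Tkt, transketolase, read 537, 549, 679.7, 704 and 456 in phenobarbital rats, against 327, 352, 231, 192 and 281 in vehicle rats. Neither gene's groups overlapped, and the log2 changes were 1.29 ± 0.24 (SE), adjusted p = 0.00012, for Me1 and 1.05 ± 0.17 (SE), adjusted p = 1.2e-05, for Tkt. With rat 1003 kept in the fit, 2 of the 14 passed. Of 5 AHR targets none passed (unadjusted p under 0.05 in 2), with 2 positive and 3 negative signs and log2 changes from -0.41 to 1.15. Cyp1a2 was at -0.41, adjusted p = 0.58, and Cyp1a1 at or below 0 in all 5 phenobarbital rats, against 3.15 to 11.4 in vehicle rats.

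Genes of cholesterol synthesis were higher after 5 days. Of 16 measured members of this list, 8 rose and none fell, against 1.46% higher and 1.1% lower of all genes. All 16 had a positive sign, and the median log2 change was 0.83, beside 0 over all genes. In the order of the pathway, Idi1, which isomerises isopentenyl diphosphate, read 859, 666, 717, 672 and 564 in phenobarbital rats 4511 to 4515, against 158, 456, 102, 206 and 238 in vehicle rats 1511 to 1515. Sqle, the squalene epoxidase, read 438, 381, 422, 286 and 346 in phenobarbital rats, against 42.2, 220.2, 9.19, 124 and 60.3 in vehicle rats. Lss, which closes squalene epoxide to lanosterol, read 269, 336, 333, 332 and 229.9 in phenobarbital rats, against 125, 131, 94.0, 88.5 and 99.4 in vehicle rats. In all 3 genes every phenobarbital rat lay above every vehicle rat, and vehicle rats differed among themselves by far more than phenobarbital rats did in Sqle. The log2 changes were 1.66 ± 0.40 (SE), adjusted p = 0.0065, for Idi1, 2.24 ± 0.54 (SE), adjusted p = 0.0069, for Sqle and 1.35 ± 0.26 (SE), adjusted p = 0.00027, for Lss. Msmo1, which removes methyl groups from sterols, rose by 1.40 ± 0.38 (SE), adjusted p = 0.026. The remaining 4 were named after their values were seen. Fdps, which makes farnesyl diphosphate, rose by 1.23, adjusted p = 0.0083, and Cyp51, the lanosterol demethylase, by 1.17, adjusted p = 0.011. Hsd17b7 and Ebp, of the later sterol steps, rose by 0.76, adjusted p = 0.037, and by 0.63, adjusted p = 0.0081.

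The count rested on the spread and on 1 animal. Vehicle rat 1513 had the lowest Sqle, and without it 2 of the 16 passed, while leaving out any other rat of either group left 6 to 10. Without that rat Lss still passed (adjusted p = 0.0017), while Idi1 and Sqle were at adjusted p = 0.052 and 0.074. Further calls were lost for Msmo1 without rat 1511, 1513, 1514, 1515, 4511 or 4512 (adjusted p = 0.05 to 0.13), Hsd17b7 without rat 1511, 1513, 1515, 4511, 4512, 4513 or 4514 (adjusted p = 0.053 to 0.18), Ebp without rat 1514 (adjusted p = 0.056), Fdps without rat 1513 (adjusted p = 0.066) and Cyp51 without rat 1513 (adjusted p = 0.15). With the 2 groups fitted alone, 1 of the 16 passed. The mean over the 16 members, on the log2 scale, was 8.77 to 9.18 in single phenobarbital females at 5 days, against 7.29 to 8.68 in their vehicle females. It was 8.70 to 9.32 in phenobarbital females at 24 h, against 8.22 to 9.19 in vehicle females at 24 h. The 5-day vehicle females lay mostly below the 24 h vehicle females, with means of 7.99 ± 0.49 and 8.76 ± 0.35 (SD, n = 5 each), while phenobarbital females were at 8.97 ± 0.14 and 8.96 ± 0.27 at these times. Males given phenobarbital for 5 days had 2 of the 16 higher and 1 lower, against 2.83% and 2.2% of all genes in that comparison (5.03% in all), with a median of 0.47. None of the 16 passed in females at 24 h, when 4.03% of all genes did. None differed in effect between the sexes, or between 5 days and 24 h, past the threshold.

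**Figure D3:**
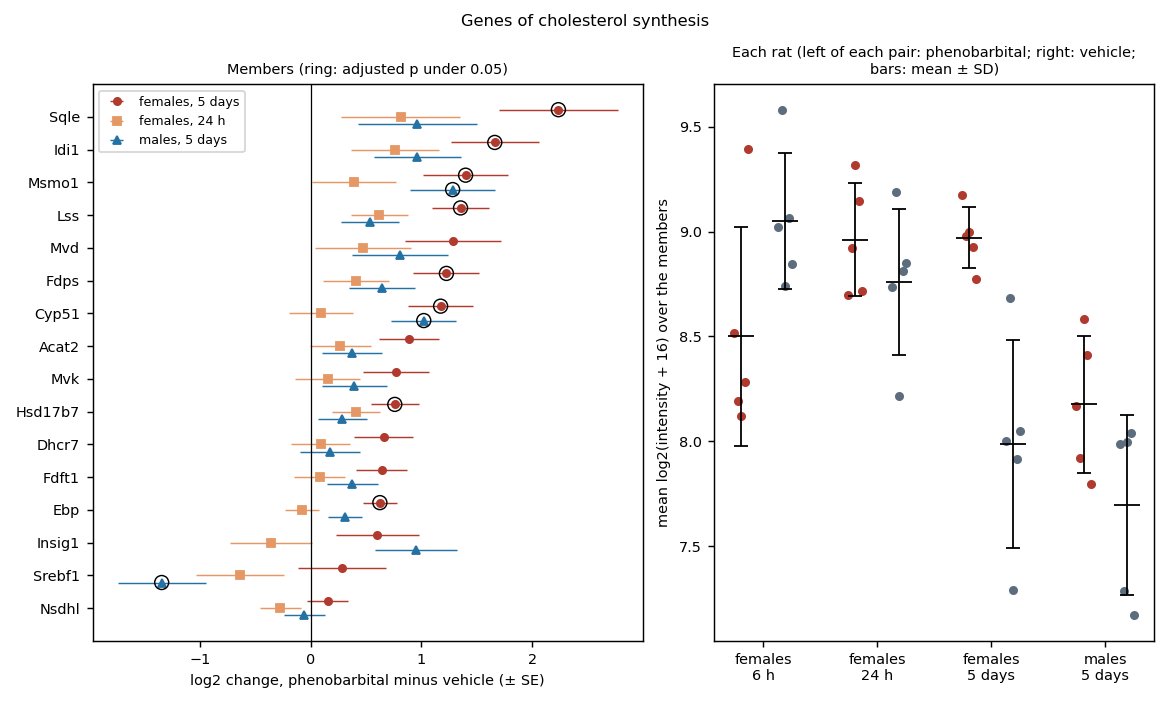
Left, log2 change (phenobarbital minus vehicle, ± SE) of the 16 measured genes of cholesterol synthesis in females at 5 days, females at 24 h and males at 5 days, with rings at an adjusted p under 0.05. Right, the mean of log2(intensity + 16) over the 16 genes in each rat, phenobarbital left of vehicle. Bars are the mean ± SD (n = 5), and the pairs are females at 6 h, 24 h and 5 days and males at 5 days. Phenobarbital females at 5 days lie at 8.77 to 9.18 and their vehicle females at 7.29 to 8.68.

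The promoters of 3 of these genes are shown because 8 members of the list rose. Sterol-regulated promoters of this pathway are known to carry a CCAAT box near their sterol regulatory element. The windows are Fdps at chr2:176804767-176805066, Lss at chr20:12118181-12118480 and Idi1 at chr17:66547475-66547774, all on the minus strand of GRCr8, printed as above with capitals at matches to CCAAT on either strand.
Fdps: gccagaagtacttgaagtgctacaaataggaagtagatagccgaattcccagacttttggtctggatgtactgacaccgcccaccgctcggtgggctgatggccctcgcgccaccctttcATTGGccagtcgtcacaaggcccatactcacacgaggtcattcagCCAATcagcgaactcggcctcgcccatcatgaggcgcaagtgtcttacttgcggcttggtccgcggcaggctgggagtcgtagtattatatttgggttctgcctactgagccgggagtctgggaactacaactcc
Lss: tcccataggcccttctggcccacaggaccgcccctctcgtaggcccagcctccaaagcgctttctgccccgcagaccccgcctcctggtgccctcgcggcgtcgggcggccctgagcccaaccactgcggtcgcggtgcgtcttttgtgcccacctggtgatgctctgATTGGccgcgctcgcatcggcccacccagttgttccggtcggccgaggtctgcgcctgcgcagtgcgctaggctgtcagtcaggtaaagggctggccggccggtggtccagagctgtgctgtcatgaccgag
Idi1: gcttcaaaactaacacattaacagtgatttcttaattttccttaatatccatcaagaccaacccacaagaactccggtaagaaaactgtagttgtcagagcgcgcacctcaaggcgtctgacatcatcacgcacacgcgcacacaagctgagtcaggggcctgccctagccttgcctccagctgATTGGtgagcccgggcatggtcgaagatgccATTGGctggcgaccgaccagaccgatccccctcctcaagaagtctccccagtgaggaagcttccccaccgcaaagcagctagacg
CCAAT on either strand was found in 11 of the 14 promoters matched for this list, against 37.5% of all 33469 promoters, and GGGCGG, the GC box, in 12 of 14, against 33.1%. In the 17 promoters matched for mitochondrial fatty acid oxidation, a list of which 8 members fell, CCAAT was found in 5 and GGGCGG in 13. ATCAC and CCAC with any 1 base between, the sterol regulatory element of the LDL receptor gene, were in none of the 14 windows and in 0.269% of all.

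Against 1.46% higher and 1.1% lower of all genes, 2 of 16 members of fatty acid synthesis and desaturation rose and none fell. Of the 2, Me1 is given above. Scd2, a stearoyl-CoA desaturase, read 209.8, 371, 333, 290.0 and 102 in phenobarbital rats 4511 to 4515, against 42.2, 40.2, 33.5, 30.1 and 33.0 in vehicle rats 1511 to 1515. Every phenobarbital rat was more than 2-fold above every vehicle rat, and the log2 change was 2.31 ± 0.31 (SE), adjusted p = 6.2e-08. Of the 5 other Scd2 probe sets, 2 passed in the same direction. Scd, the main desaturase of liver, read 629, 474, 224, 843 and 472 in phenobarbital rats, against 436, 692, 109, 40.9 and 198 in vehicle rats, with overlapping groups and a change of 1.21 ± 0.68 (SE) that did not pass (adjusted p = 0.62). Fasn, fatty acid synthase, was at 0.77 ± 0.44 (SE) (adjusted p = 0.62).

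Genes of mitochondrial fatty acid oxidation were lower. Of 21 measured members 8 fell and none rose, against 1.1% lower and 1.46% higher of all genes. Of the 21, 20 had a negative sign, and the median log2 change was -0.43, beside 0 over all genes. Eci1, an enoyl-CoA isomerase needed for unsaturated fatty acids, read 609, 942, 803, 370.4 and 1388 in phenobarbital rats 4511 to 4515, against 1537, 2029, 3907, 5556 and 1724 in vehicle rats 1511 to 1515. Acaa2, the thiolase of the last step, read 1132, 1483, 1417, 1394 and 1357 in phenobarbital rats, against 2069, 1978, 3401, 3277 and 2176 in vehicle rats. No phenobarbital rat reached the lowest vehicle rat in either gene. Eci1 fell by 1.76 ± 0.35 on the log2 scale (adjusted p = 0.00045), and Acaa2 fell by 0.88 ± 0.16 (adjusted p = 0.00012). The probe sets of Eci1 disagreed, as 1 of 3 others passed and another, well above the floor, was at -0.034, adjusted p = 1. Hadhb, a subunit of the trifunctional protein, changed by -0.83, adjusted p = 0.0012, and Decr1, the dienoyl-CoA reductase, by -0.70, adjusted p = 0.00011. The other 4 that fell were named after their values were seen. They were Hadha, the other subunit of the trifunctional protein (-0.69, adjusted p = 0.00012), the acyl-CoA dehydrogenases Acadl (-0.67, adjusted p = 0.00017) and Acadm (-0.58, adjusted p = 5e-05), and Fabp1, the liver fatty acid binding protein (-0.24, adjusted p = 0.01). Cpt1a, the entry enzyme of the mitochondrion, was at -0.88 ± 0.32 (SE), adjusted p = 0.17.

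Of 15 further PPARα targets, from microsomes, peroxisomes and mitochondria, 3 fell and none rose, against 1.1% lower and 1.46% higher of all genes. Cyp4a1, a fatty acid omega-hydroxylase, read 966, 548, 392, 269.9 and 816 in phenobarbital rats 4511 to 4515, against 1059, 1339, 1999.7, 2342 and 1182 in vehicle rats 1511 to 1515. Ech1, a dienoyl-CoA isomerase, read 400.5, 480.3, 406, 104 and 933 in phenobarbital rats, against 935, 957, 1279, 2805 and 1159 in vehicle rats. The groups of both genes were separated by a narrow gap, with vehicle rat 1514 the highest of all. Cyp4a1 changed by -1.45 ± 0.29 (SE), adjusted p = 0.00063, Ech1 by -1.73 ± 0.44 (SE), adjusted p = 0.013, and Acot2, a mitochondrial acyl-CoA thioesterase, by -1.32 ± 0.34 (SE), adjusted p = 0.014. Without vehicle rat 1514, 1 of the 15 passed, with Ech1 at adjusted p = 0.093 and Acot2 at 0.14. Without phenobarbital rat 4514 Ech1 was at 0.14, and without 4513 Acot2 was at 0.083 (adjusted p). Fabp1 did not pass without vehicle rat 1514 or phenobarbital rat 4514 (adjusted p = 0.055 and 0.061). With the 2 groups fitted alone, 0 of the 21 members of the mitochondrial list and 0 of these 15 passed. The 8 members of the mitochondrial list that fell, Fabp1 among them, were then at adjusted p = 0.065 to 0.17. With rat 1003 kept 5 of the 21 passed, and with median scaling 7, without Fabp1.

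The mean over the 21 members of the mitochondrial list, on the log2 scale, was 8.81 to 9.21 in single phenobarbital females, against 9.21 to 9.75 in vehicle females at 5 days. At 24 h the same mean was 9.01 to 9.20 in phenobarbital females, against 8.86 to 9.30 in vehicle females. Group means were 9.004 ± 0.16 at 5 days and 9.12 ± 0.087 at 24 h with phenobarbital, and 9.47 ± 0.23 at 5 days and 9.08 ± 0.16 at 24 h with vehicle (SD, n = 5 each), so that the vehicle females of the later time were the higher of the 2 vehicle groups. At 6 h the means were 9.40 ± 0.15 in phenobarbital females and 9.23 ± 0.11 in vehicle females. In males at 5 days 4 of the 21 fell and 1 rose, against 2.2% and 2.83% of all genes in that comparison, with a median of -0.28. None of the 21 differed between the sexes in effect past the threshold.

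**Figure D4:**
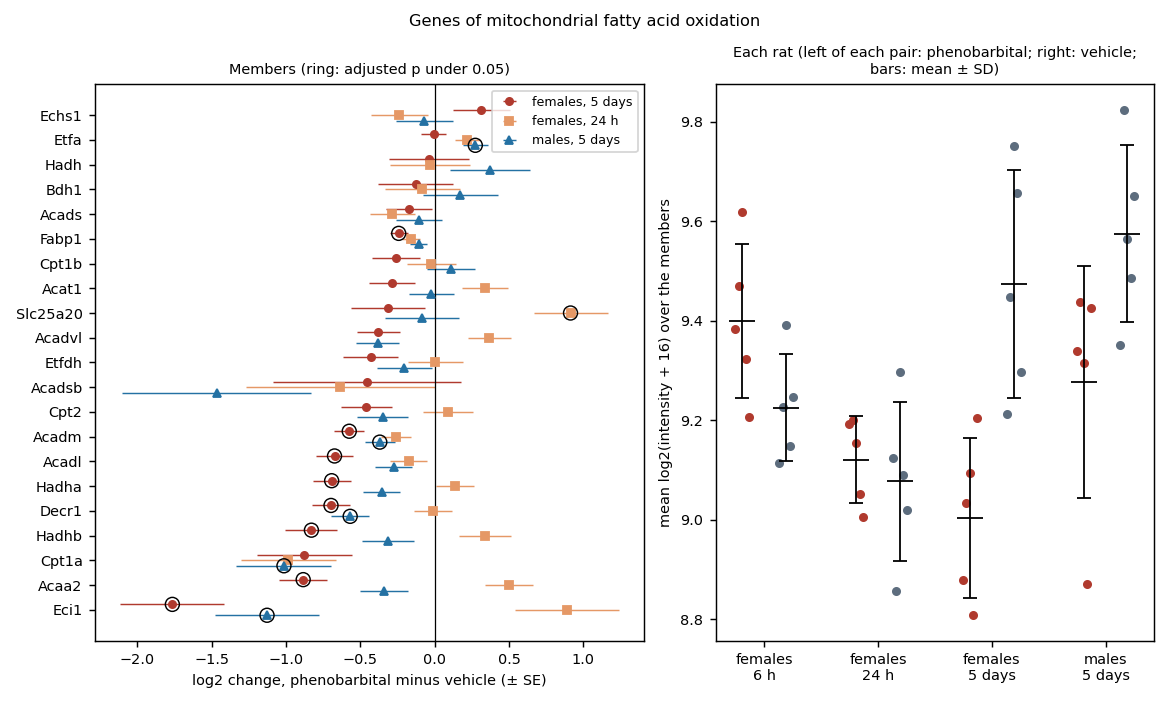
Left, log2 change (phenobarbital minus vehicle, ± SE) of the 21 measured genes of mitochondrial fatty acid oxidation in females at 5 days, females at 24 h and males at 5 days, with rings at an adjusted p under 0.05. Right, the mean of log2(intensity + 16) over the 21 genes in each rat, phenobarbital left of vehicle. Bars are the mean ± SD (n = 5), and the pairs are females at 6 h, 24 h and 5 days and males at 5 days. Phenobarbital females at 5 days lie at 8.81 to 9.21 and their vehicle females at 9.21 to 9.75.

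In amino acid metabolism 1 of 30 measured genes rose (3.33%) and 2 fell (6.67%), against 1.46% and 1.1% of all genes. Glul, the glutamine synthetase of the hepatocytes around the central vein, read 1533, 1011, 769, 1024 and 1220.1 in phenobarbital rats 4511 to 4515, against 2417, 2080.1, 2065, 1787 and 1933 in vehicle rats 1511 to 1515. The groups did not overlap, the log2 change was -0.91 ± 0.16 (SE), adjusted p = 3.6e-05, and its 3 other probe sets fell too. Glud1, glutamate dehydrogenase, fell by 0.40 on the log2 scale (adjusted p = 0.0081). Otc, of the urea cycle, rose by 0.41, adjusted p = 0.038, and did not pass without vehicle rat 1513 or 1514 or phenobarbital rat 4511, 4512, 4513 or 4514 (adjusted p = 0.055 to 0.33). Sds, the serine dehydratase, read 1784, 1257, 2397, 869 and 3327 in phenobarbital rats, against 1015, 470.4, 2207, 143 and 1898 in vehicle rats, with wide overlapping groups and a change of 1.12 ± 0.97 (SE), adjusted p = 0.91.

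In glucose metabolism 1 of 21 genes rose (4.76%) and 2 fell (9.52%), against 1.46% and 1.1% of all genes. Pfkfb1, which sets the level of a phosphorylated fructose that regulates glycolysis, rose by 1.37 ± 0.24 (SE), adjusted p = 7e-05, though 1 of its 3 other probe sets had the opposite sign. Pc, pyruvate carboxylase, fell by 0.57 (adjusted p = 0.0016) and Fbp1, fructose bisphosphatase, by 0.30 (adjusted p = 0.0099). Fbp1, like Glud1, did not pass with median scaling (adjusted p = 0.73 and 0.28), and Fbp1 not without vehicle rat 1513 or phenobarbital rat 4514 (adjusted p = 0.057 and 0.067). None of 11 bile acid synthesis genes passed (unadjusted p under 0.05 in 1), Cyp7a1, the rate-limiting enzyme, being at -0.26 ± 0.68 (SE). In the growth hormone and IGF axis none of 18 passed (unadjusted p under 0.05 in 1), with Igfbp1 at 0.035 ± 0.89 (SE). Among carriers, enzymes and targets of thyroid hormone only Me1 of 9 passed, and Serpina7, the thyroxine-binding globulin, was at -1.56 ± 0.57 (SE), adjusted p = 0.17.

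In the cell cycle list 2 of 23 rose and none fell, against 1.46% and 1.1% of all genes. Of its members 10 had a positive and 12 a negative sign, and log2 changes ran from -1.19, which did not pass, to 1.14. Stmn1, which destabilises microtubules and is high in dividing cells, read 105, 116, 93.2, 85.9 and 98.4 in phenobarbital rats 4511 to 4515, against 34.7, 34.1, 44.6, 40.5 and 29.6 in vehicle rats 1511 to 1515. All phenobarbital rats lay above all vehicle rats, by 1.14 ± 0.24 (SE), adjusted p = 0.0011. Cdk1, the mitotic kinase, read 25.8, 18.7, 17.1, 5.45 and 17.7 in phenobarbital rats, against 0, 0, 0.447, 3.57 and 0 in vehicle rats, with 3 vehicle rats at the floor, and changed by 0.94 ± 0.25 (SE), adjusted p = 0.022. Both genes were dim. Cdk1 did not pass without vehicle rat 1513 or phenobarbital rat 4511 or 4512 (adjusted p = 0.051 to 0.083). Nor did it pass with a pseudocount of 64, and over the alternatives other than single rats its log2 change ran from 0.32 to 3.48.

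Rpn2, a subunit of the oligosaccharyltransferase of the endoplasmic reticulum, rose by 0.52 ± 0.091 (SE), adjusted p = 5e-05, the only one of 20 genes of ER folding and stress that passed, while 19 of the 20 had a positive sign. Crp, an acute phase protein, rose by 0.36, adjusted p = 0.046, the only one of 25 acute phase genes that passed. It did not pass when any single rat was left out (adjusted p = 0.056 to 0.15), and its 2 other probe sets were near 0. Pros1, protein S, was the only one of 16 complement and coagulation genes to pass, at 0.36, adjusted p = 0.038, and did not without vehicle rat 1512, 1513 or 1514 or phenobarbital rat 4512 or 4514 (adjusted p = 0.059 to 0.26). Hspb1, a small heat shock protein, was at -0.65, adjusted p = 0.016, the only one of 13 heat shock genes that passed. It did not without vehicle rat 1514 or phenobarbital rat 4512 (adjusted p = 0.053 and 0.064), and its 3 other probe sets did not pass. Of all genes 1.46% rose and 1.1% fell. In the respiratory chain 2 of 26 fell, Cyc1, of complex III, by 0.50 (adjusted p = 0.0069) and Ndufa5, of complex I, by 0.35 (adjusted p = 0.035). Cyc1 did not pass without vehicle rat 1513 or phenobarbital rat 4514 (adjusted p = 0.065 and 0.091), and Ndufa5 not without vehicle rat 1511, 1513 or 1514 or any phenobarbital rat but 4514 (adjusted p = 0.052 to 0.3). Both were also lost with median scaling, with rat 1003 kept and with only the 2 groups fitted. In the last fit Cyc1 was at adjusted p = 0.25 and Ndufa5 at 0.29. None of 24 proteasome genes, 31 cytosolic ribosomal proteins, 26 nuclear receptors and partners, 9 clock genes or 8 p53 targets passed in limma, with 1, 4, 3, 0 and 2 of them at an unadjusted p under 0.05 in that order.

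The largest changes included genes outside these lists. Slc6a9, a glycine transporter, read 257, 310.2, 222, 233 and 189 in phenobarbital rats 4511 to 4515, and was at or below 0 in all 5 vehicle rats, so no fold is given (adjusted p = 3e-10). Grm5, a glutamate receptor, read 95.8, 101, 107, 75.2 and 60.4 in phenobarbital rats, against 0, 14.0, 3.38, 32.4 and 0 in vehicle rats, without overlap (2.12, adjusted p = 2.6e-07). Ddc, the aromatic amino acid decarboxylase, read 353, 412, 475, 392 and 301 in phenobarbital rats, against 123, 167, 13.3, 8.57 and 49.6 in vehicle rats, with no phenobarbital rat below any vehicle rat (2.61, adjusted p = 0.00018). Of the falls, Atp7b, a copper transporter, was at or below 0 in all 5 phenobarbital rats, against 12.5 to 23.3 in vehicle rats (adjusted p = 0.0065). Grk4, a receptor kinase, was also at or below 0 in all 5 phenobarbital rats, against 44.9, 29.6, 0, 59.0 and 38.0 in vehicle rats (adjusted p = 0.016). Ak4, a mitochondrial adenylate kinase, changed by -1.31, adjusted p = 0.0022, Prkch, a protein kinase C, by -1.37, adjusted p = 0.011, and Gde1, a phosphodiesterase, by -0.89, adjusted p = 0.011. Grk4 did not pass without vehicle rat 1511 or 1514 (adjusted p = 0.055 and 0.093), Prkch not without 1513, 1514 or 4512 (adjusted p = 0.059 to 0.14), and Gde1 not without 1514 or 4514 (adjusted p = 0.064 and 0.1). With only the 2 groups fitted, 40 of the 67 named genes that passed no longer did, at adjusted p = 0.059 to 0.79. Among these were Ddc (0.092), Ak4 (0.12), Grk4 (0.15), Prkch (0.28), Gde1 (0.23), Pfkfb1 (0.11), Pc (0.065), Glul (0.059) and Cyp4a1 (0.17).

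Genes known for a sex bias in rat liver were listed by the sex with the higher level; of all genes 1.46% rose and 1.1% fell. Of 14 measured genes higher in male liver, Cyp3a2 rose and Hao2, a hydroxyacid oxidase, fell (-1.02 ± 0.22 (SE), adjusted p = 0.0017). With only the 2 groups fitted Hao2 was at adjusted p = 0.4. Of 12 genes listed as higher in female liver, Hsd11b1, which reactivates glucocorticoids, rose by 0.96 ± 0.27 (SE), adjusted p = 0.035. These rats went against that listing, as Hsd11b1 read 162 to 318 in vehicle females and 2558 to 4071 in vehicle males. Hsd11b1 groups overlapped, with 181 to 787 in phenobarbital rats, against 162 to 318 in vehicle rats, and the gene did not pass without vehicle rat 1512, 1514 or 1515 or phenobarbital rat 4512, 4514 or 4515 (adjusted p = 0.071 to 0.21).

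The labelled tissue was checked against marker genes, and hepatocyte markers were bright in all 10 rats. None of 10 measured hepatocyte markers passed, and their summed intensity per rat was 51628 to 55813 with phenobarbital, against 54390.5 to 57288 with vehicle. None of 10 macrophage markers passed, with sums of 2381 to 3276 in phenobarbital rats, against 1746 to 2666 in vehicle rats and a median log2 change of 0.28. An unadjusted limma p under 0.05 was reached by 4 of the 10, against 871 of 8740 probe sets. Their mean log2 level was 7.33 to 7.64 in phenobarbital rats and 7.01 to 7.37 in vehicle rats. None of 7 bile duct markers passed, and the sums did not overlap, at 1499 to 1684 with phenobarbital, against 1709 to 2445 with vehicle. A sum follows its brightest members. The mean log2 level over the 7 overlapped, at 6.37 to 6.54 with phenobarbital and 6.40 to 6.59 with vehicle. Of the 7, 4 had a positive and 3 a negative sign, with a median log2 change of 0.026. Sums of the 5 blood markers were 1380.1 to 3048 in phenobarbital rats, against 2598 to 5226 in vehicle rats. Of 15 stellate cell and fibroblast markers and 14 lymphocyte markers none passed, and Des and Cd3d were at or below 0 in all 10 rats. Stellate sums were 3968 to 5567 with phenobarbital, against 3416 to 5203 with vehicle, and lymphocyte sums 597 to 696 with phenobarbital, against 624 to 731 with vehicle. Of 9 endothelial markers Flt1 passed (0.78, adjusted p = 0.046), with vehicle rat 1515 at or below 0. The call was lost for Flt1 without rat 1513, 1515, 4511, 4512, 4513 or 4514 (adjusted p = 0.06 to 0.76). Sums of the endothelial markers were 1059 to 1288 with phenobarbital, against 1005 to 1137 with vehicle. Their part in the results was not tested.

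Whether the phenobarbital effect differed by sex was tested as the effect in females minus that in males dosed alike, and 9 of 8740 probe sets (0.103%) and 6 of 4736 genes (0.127%) passed. Among the genes that passed in females, 58 of 121 (47.9%) passed the same way in males, which is 24.4% of the 238 genes that passed in males, and none passed the opposite way. Cyp2b2 rose by 3.29 ± 0.29 (SE) in males and Gsta3 by 3.76 ± 0.35 (SE), and neither differed by sex past the threshold (adjusted p = 0.94 and adjusted p = 0.29). The 95% intervals of these female minus male differences were -0.36 to 1.30 for Cyp2b2 and -2.58 to -0.64 for Gsta3, of which that for Gsta3 lies below 0 before adjustment.

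The effect on Cyp3a2 differed by 2.58 ± 0.48 (SE), adjusted p = 0.0022. With 4 of 5 vehicle females at the floor its size follows the pseudocount, at 1.31 with 64 and 5.65 with 1. In males it read 3020.1, 2931, 2861, 3582 and 3384 in phenobarbital rats 4011 to 4015, against 3052, 2357, 3030.0, 3030.0 and 3101 in vehicle rats 1011 to 1015, a log2 change of 0.12. The phenobarbital females read far below males of either group. Scd2 differed by 2.43 ± 0.44 (SE), adjusted p = 0.002, and read 45.9, 38.4, 14.2, 53.9 and 24.6 in phenobarbital males, against 32.2, 13.3, 88.0, 37.3 and 40.04 in vehicle males, which overlapped. Sult2a1, a hydroxysteroid sulfotransferase higher in females, fell in males by 1.14 on the log2 scale (adjusted p = 3.1e-08). It was at -0.22 in females and did not pass there, a difference of 0.92 ± 0.21 (SE), adjusted p = 0.045. Grk4 differed by -2.59, adjusted p = 0.019, Tbce, a tubulin folding cofactor, by -0.75, adjusted p = 0.019, and Suclg1, a subunit of succinyl-CoA ligase named after its values were seen, by -0.50, adjusted p = 0.019. The fitted value of Grk4 rests on the floor, where all 5 phenobarbital females lay. With rat 1003 kept the Cyp3a2 difference did not pass (adjusted p = 0.39), and with a pseudocount of 1 that of Scd2 did not (adjusted p = 0.11). With only the 4 groups fitted 0 probe sets passed in limma, with 517 at an unadjusted p under 0.05 (633 in the fit of all groups). Leaving out single rats moved the 9 probe sets to 5 without vehicle male 1015 or vehicle female 1513 or 1514, to 18 without vehicle male 1011 and to 15 without phenobarbital male 4012; without a single rat Cyp3a2 and Scd2 passed each time, while Sult2a1 was lost in 16 of 20 cases. Calls were also lost for Grk4 without rat 1015 or 1514 (adjusted p = 0.053 to 0.064), Tbce without rat 1015, 1513, 4013 or 4515 (adjusted p = 0.051 to 0.087) and Suclg1 without rat 1014, 1513, 1514 or 4011 (adjusted p = 0.051 to 0.1).

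**Figure D5:**
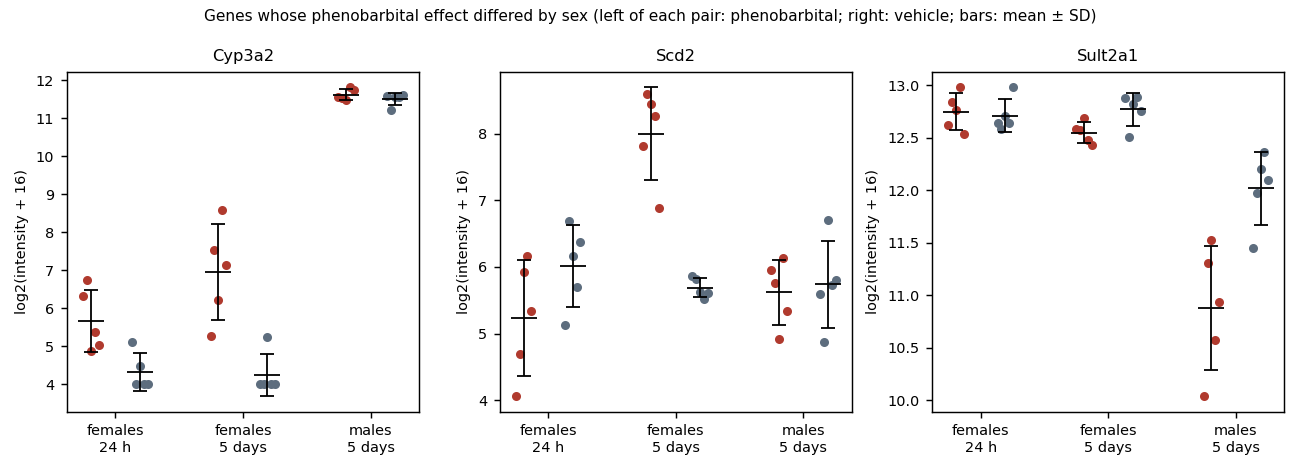
Levels of Cyp3a2, Scd2 and Sult2a1 as log2(intensity + 16) in single rats, phenobarbital left of vehicle, for females at 24 h, females at 5 days and males at 5 days; bars are the mean ± SD (n = 5) and the floor is 4.00. Phenobarbital females at 5 days stand above vehicle females for Cyp3a2 and Scd2, and phenobarbital males stand mostly below vehicle males for Sult2a1.

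The effect of 5 doses was compared with that of a single dose measured 24 h after it as a difference of 2 effects in females, and 142 of 8740 probe sets (1.62%) and 76 of 4736 genes (1.6%) differed, 26 genes higher (0.549%) and 50 lower (1.06%) at 5 days. Cyp2b2 had risen by 4.60 ± 0.29 (SE) at 24 h and Abcc3 by 2.01 ± 0.26 (SE), and neither effect differed between the times past the threshold (adjusted p = 0.53 and adjusted p = 1). The 5-day minus 24 h difference in effect was positive for Ephx1 (0.96 ± 0.21 (SE), adjusted p = 0.0033), Gstt1 (1.65 ± 0.30 (SE), adjusted p = 0.00043) and Gsta4 (1.02 ± 0.20 (SE), adjusted p = 0.00069). The differences of Gstt1 and Gsta4 exceed their 5-day rises. Over the transferase list, vehicle females had means of 9.11 ± 0.11 at 24 h and 8.90 ± 0.20 at 5 days. Phenobarbital females had 9.24 ± 0.076 and 9.47 ± 0.099 (SD, n = 5 each). The part of the vehicle levels in the Gstt1 and Gsta4 differences was not tested. Scd2 was -0.78 at 24 h and its effect differed by 3.09 ± 0.44 (SE), adjusted p = 2.6e-06. Scd fell by 2.45 at 24 h (adjusted p = 0.02), a difference of 3.66 ± 0.97 (SE), adjusted p = 0.026. Over the list of fatty acid synthesis and desaturation, vehicle females had means of 8.27 ± 0.39 at 24 h and 7.66 ± 0.28 at 5 days. Phenobarbital females had 7.79 ± 0.18 and 8.09 ± 0.16 at these times (SD, n = 5 each). The part of the vehicle groups' levels in the Scd and Scd2 differences was not tested. Sds was at -4.06 at 24 h, a difference of 5.18 ± 1.37 (SE), adjusted p = 0.026. Pfkfb1, Otc and Rpn2 differed by 1.30, adjusted p = 0.027, by 0.69, adjusted p = 0.0087, and by 0.63, adjusted p = 0.0017.

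Of 21 genes of mitochondrial fatty acid oxidation, 6 had a lower effect at 5 days and none a higher one, and the others did not pass. Of all genes 1.06% had a lower and 0.549% a higher effect. The count was 2 with only the 4 groups fitted, 2 with rat 1003 kept, and 4 without rat 1507, 1513, 1514 or 4514. Eci1 was 0.89 at 24 h, a difference of -2.65 ± 0.50 (SE), adjusted p = 0.00061, and Acaa2 0.50 at 24 h, a difference of -1.38 ± 0.23 (SE), adjusted p = 7.4e-05. Hadhb, Hadha and Decr1 differed by -1.17, -0.83 and -0.69, each past the threshold, and Ech1 and Cyp4a1, of the PPARα list, by -2.54 and -1.72, both past it. As given above, vehicle females of the 2 times differed in the mean of the mitochondrial list, and its part in this difference was not tested. Abcb4, Ndufa5 and Suclg1 differed by -1.13, -0.52 and -0.51, each past the threshold. Tuba4a, an alpha tubulin, was at the floor in 4 of 5 phenobarbital females and 2 of 5 vehicle females at 5 days, so the size of its fitted difference of -3.93, adjusted p = 0.021, follows the pseudocount, at -2.59 with 64 and -5.92 with 1, where it did not pass (adjusted p = 0.23).

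The proteasome, which breaks down marked proteins, gave the largest count of one list in this difference. None of its 24 measured genes passed at 5 days, and 19 had risen at 24 h, when 4.03% of all genes passed, 2.2% higher and 1.84% lower. Of the 24, 15 differed between the times, all lower at 5 days, against 1.06% lower of all genes. Psmc4, an ATPase subunit, rose by 1.10 ± 0.18 (SE) at 24 h and was at -0.10 at 5 days, a difference of -1.20 ± 0.25 (SE), adjusted p = 0.0019. Psmb3, a core subunit, differed by -1.16 ± 0.20 (SE), adjusted p = 0.00019. Of 13 heat shock genes 5 differed, all lower at 5 days. The mean log2 level over the list was 7.75 ± 0.26 in phenobarbital females and 8.01 ± 0.31 in vehicle females at 5 days, and 8.01 ± 0.25 in phenobarbital females and 7.63 ± 0.074 in vehicle females at 24 h (SD, n = 5 each). The part of the vehicle groups' levels in the difference was not tested. The 5 included Hsph1, a large chaperone (-2.18 ± 0.57 (SE), adjusted p = 0.025), and Hsp90ab1 (-1.13 ± 0.21 (SE), adjusted p = 0.00061). These 4 genes were named after their values were seen. The mean over the 24 proteasome genes was 8.91 to 9.01 in phenobarbital females at 5 days, against 8.83 to 9.45 in their vehicle females. At 24 h it was 9.28 to 9.87 in phenobarbital females, against 8.89 to 9.05 in vehicle females.

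These differences between times were sensitive to the spread used. With only the 4 groups fitted, 32 probe sets, 1 proteasome gene and no heat shock gene differed, and with rat 1003 kept 78 probe sets, 12 proteasome genes and 3 heat shock genes. Without vehicle female 1514, 87 probe sets, 12 proteasome genes and 2 heat shock genes differed, and without phenobarbital female 4506 of the 24 h group, 88, 12 and 2. The heat shock count was also 2 without rat 1513, 4509 or 4511, and 3 without 1507, 1509, 4512 or 4514. With rat 1003 kept the Ephx1 difference was at adjusted p = 1 and that of Eci1 at 0.056. Of the named genes, calls were lost for Cyp4a1 without rat 4514 (adjusted p = 0.052), Decr1 without rat 1507, 1513, 1514 or 4514 (adjusted p = 0.056 to 0.12), Ech1 without rat 1514 or 4514 (adjusted p = 0.056 to 0.062), Otc without rat 1514 (adjusted p = 0.062) and Scd without rat 1507, 1510, 1513, 1514, 4506 or 4514 (adjusted p = 0.053 to 0.11). They were lost too for Sds without rat 1507, 1509, 1514, 4506, 4508, 4509 or 4515 (adjusted p = 0.051 to 0.099), Pfkfb1 without rat 1507, 1510, 1513, 4512, 4513 or 4514 (adjusted p = 0.059 to 0.088), Abcb4 without rat 1507, 1509, 1510, 1513, 1514, 4507, 4508, 4510, 4511, 4512, 4513 or 4514 (adjusted p = 0.057 to 0.17), Ndufa5 without rat 1507, 1510, 1513, 1514, 4506, 4509, 4511 or 4512 (adjusted p = 0.051 to 0.15), Hsph1 without rat 1513, 1514, 4506, 4509, 4511 or 4514 (adjusted p = 0.054 to 0.11) and Tuba4a without rat 1509, 1512, 1514, 4506 or 4509 (adjusted p = 0.055 to 0.078).

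Phenobarbital and PCN, both at 100 mg/kg for 5 days in females, were compared directly. Of 8740 probe sets 604 (6.91%) differed, and of 4736 genes 371 (7.83%), 173 higher (3.65%) and 198 lower (4.18%) with phenobarbital. The comparison shares the phenobarbital rats with the one against vehicle. Cyp3a18 was lower with phenobarbital (-3.66, adjusted p = 2.9e-16), with 63.4, 116, 117, 139 and 42.7 in phenobarbital rats, against 1329.9, 1451, 1295, 1215 and 1254 in PCN rats 5511 to 5515. Cyp3a23-3a1 read 7685, 5224, 5556, 5556 and 6938 in PCN rats, a phenobarbital minus PCN difference of -0.11 ± 0.17 (SE), adjusted p = 0.93, with a 95% interval of -0.45 to 0.23. Cyp2b2 differed by 0.59 ± 0.29 (SE), adjusted p = 0.29, with a 95% interval of 0.0036 to 1.17, and read 4961, 3516, 3534, 4530.4 and 4473 in PCN rats. Cyp2b15 was higher with phenobarbital by 1.39 ± 0.19 (SE), adjusted p = 1.4e-07. Lower with phenobarbital were Slco1a4 (-1.71, adjusted p = 5.2e-09), Akr7a3 (-1.41, adjusted p = 0.00048), Alas1 (-1.16, adjusted p = 0.00098) and Por (-0.93, adjusted p = 0.012).

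Higher with phenobarbital than with PCN were Sds (5.84 ± 0.97 (SE), adjusted p = 7.9e-06), Scd2 (2.06 ± 0.31 (SE), adjusted p = 7.7e-07), Cyp1a2 (1.90, adjusted p = 6.5e-10) and Scd (2.80, adjusted p = 0.0037). Slc6a9 was at or below 0 in all 5 PCN rats as in the vehicle rats, so no fold is given (adjusted p = 2.8e-10). Igfbp1, an IGF binding protein made by liver, was 2.93 higher (adjusted p = 0.027), but not without phenobarbital rat 4512 or 4515 or PCN rat 5511 or 5514 (adjusted p = 0.06 to 0.15). Gpd1, the cytosolic glycerol phosphate dehydrogenase, was lower with phenobarbital (-2.84, adjusted p = 0.031), with 4 of 5 phenobarbital rats at or below 0, and did not pass without phenobarbital rat 4511, 4512, 4514 or 4515 or PCN rat 5513, 5514 or 5515 (adjusted p = 0.054 to 0.1). Of all genes 3.65% were higher and 4.18% lower with phenobarbital than with PCN. Of the 16 cholesterol genes 7 were higher with phenobarbital and none lower, and of the 21 members of the mitochondrial list 1 was higher and 6 lower. Of the 24 proteasome genes 1 was higher and 10 lower with phenobarbital, and of 30 genes of amino acid breakdown 11 higher and 1 lower. Of the 14 NRF2 targets outside the transferases 8 were lower with phenobarbital than with PCN and none higher, with a median difference of -0.56.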

How the data were processed

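Liver RNA was hybridised to one-colour Affymetrix rat arrays. The authors deposited 1 linear intensity for each probe set and array, with values below 0; the method behind these intensities is not given in the sources used here. Of 8799 probe sets, 59 controls were left out. Arrays of rats given phenobarbital, PCN or vehicle numbered 90, in 18 groups of 5 taken from the labels. Rat 1003, a male vehicle rat, was left out because 42.1% of its rows were displaced by 1 row; its correlation with its group was 0.627, against at least 0.96 for every other rat. The 89 arrays were quantile normalised, values below 0 were then set to 0, and log2(intensity + 16) was taken, from which all p-values were computed here.

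Group means of all 18 groups were fitted with limma 3.58.1 (R 4.3.3) by lmFit and eBayes, with Benjamini-Hochberg adjustment over 8740 probe sets, after a test on simulated data. Python 3.11.15, numpy 2.4.6 and pandas 2.3.3 did the rest. Each adjusted p is from this limma fit, two-sided. Gene symbols came from the platform annotation, updated through gene identifiers: 7018 probe sets had 1 symbol, 308 several and 1473 none. Named genes were 31 measured key genes, up to 4 that passed in each gene list, the 12 largest rises and falls and the 5 largest of each further difference, 77 in all, plus 15 chosen after their values were seen. The members, the lists and this rule were chosen with earlier results of these data known. Sequences came from RefSeq promoters (GRCr8). Alternatives changed the pseudocount, scaling, filter, moderation, arrays fitted, probe set rule and single rats. Near-identical transcripts were not separated, and the number of arrays limits the precision. The labels used here name no batch.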

Additional observations from a re-analysis of the deposited data

Results flagged for a closer look

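In 10 of 184 groups of 5 rats looked at over the named genes, 1 rat stood apart from the other 4 by Dixon's criterion; chance flags about 5% of groups, a rate that does not hold where the other 4 are tied at the floor (Gpd1, Tuba4a and Cyp3a2) or nearly so (Cdk1). Values are log2(intensity + 16). Among phenobarbital rats, 4513 was highest in Gpd1 at 4.31 and in Tuba4a at 5.38, with the other 4 at the floor in both. Among vehicle rats, 1514 was highest in Ech1 at 11.5 and in Cdk1 at 4.29, and lowest in Otc at 10.1. Vehicle rat 1515 was highest in Cyp1a1 at 4.78 and lowest in Flt1 at the floor of 4. Vehicle rat 1513 was highest in Cyp3a2 at 5.25, rat 1511 lowest in Ephx2 at 5.26 with the others at 7.78 to 8.27, and rat 1512 lowest in Hspb1 at 7.52.

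The phenobarbital effect at 5 days differed between females and males, by the limma test of the difference, in Cyp3a2 (2.58), Scd2 (2.43), Sult2a1 (0.92), Grk4 (-2.59), Tbce (-0.75) and Suclg1 (-0.50), each a female minus male difference of log2 changes.

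The effect in females differed between 5 days and 24 h by the same kind of test. It was higher at 5 days in Sds (5.18), Scd (3.66), Scd2 (3.09), Gstt1 (1.65), Pfkfb1 (1.30), Gsta4 (1.02), Ephx1 (0.96), Otc (0.69) and Rpn2 (0.63). In fat oxidation it was lower in Eci1 (-2.65), Ech1 (-2.54), Cyp4a1 (-1.72), Acaa2 (-1.38), Hadhb (-1.17), Hadha (-0.83) and Decr1 (-0.69). In protein turnover and folding it was lower in Hsph1 (-2.18), Psmc4 (-1.20), Psmb3 (-1.16) and Hsp90ab1 (-1.13). Elsewhere it was lower in Tuba4a (-3.93), Abcb4 (-1.13), Ndufa5 (-0.52) and Suclg1 (-0.51).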

How the results depend on the processing

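The count of 216 probe sets against vehicle was 85 with only the groups compared fitted, and 84 with the 10 arrays normalised and fitted alone; both use fewer arrays for the spread. Leaving out single rats gave 151 to 243 (lowest without rat 1513). Median scaling gave 154, of which 72.1% were higher, against 58.8% of the 216. The count of 9 that differed by sex was 4 with median scaling, 0 with only the groups compared, 5 with rat 1003 kept and 5 to 18 without single rats. The count of 604 against PCN was 269 with only the groups compared and 436 to 645 without single rats. The count of 142 between times was 32 with only the groups compared, 78 with rat 1003 kept and 87 to 177 without single rats. The cause was not tested where rat 1003 or the scaling moved a count.

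Of 67 named genes that passed against vehicle, none changed sign in 18 alternatives, 19 passed in each of them and 40 were lost with only the groups compared. Among the 25 that did not pass, Cyp2c6v1, Cyp1a1 and Serpina7 passed in at least 1 alternative. Cyp2c7 turned to 0.018 with median scaling and Cyp7a1 to 0.36 with a pseudocount of 1; the cause was not tested. Without single rats, log2 changes spanned 0 in Cyp3a18 (-0.14 to 0.22), Cyp3a9 (-0.14 to 0.23), Cyp2c7 (-0.043 to 0.021), Cyp7a1 (-0.996 to 0.14), Igfbp1 (-0.14 to 0.25) and Psmc4 (-0.22 to 0.055). No paired analysis was possible because the rats compared carry different numbers. On the 10 arrays 21.8% to 24.6% of values lie at or below 0, so that changes of dim genes have no settled size.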
